A study of Mus musculus with 9 samples.

Results

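The 8 genes described here encode parts of the machinery with which cytotoxic lymphocytes kill: the granzymes A, B and K (Gzma, Gzmb, Gzmk), perforin (Prf1), the granule membrane protein NKG7 (Nkg7), cathepsin W (Ctsw), Fas ligand (Fasl) and the granule proteoglycan serglycin (Srgn). They were chosen by symbol from a deposited count table of 30865 genes, each symbol stood on 1 row, and all 8 were among the 17578 genes with enough counts to be tested. RNA from mouse lung was sequenced in 9 libraries, 3 from normoxia, 3 from hypoxia and 3 labelled as HIF-1α knockdown after hypoxia, HIF-1α being the transcription factor that is stabilised when oxygen is low. The hypoxia and knockdown groups thus share the exposure to low oxygen. The sources used here do not give strain, age, sex, oxygen level, length of exposure, the agent of the knockdown or the number of animals. Nothing states that the libraries came from separate animals, so p-values measure the spread between these libraries, which may be technical.

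Cytotoxic T cells and natural killer (NK) cells store granzymes and perforin in secretory granules and release them at the contact with a target cell. Perforin forms pores in the target membrane, through which granzymes, a family of serine proteases, enter and cleave proteins of the target. Fas ligand kills by a separate route, by binding the death receptor Fas on the target. In the lung these cells patrol the capillaries and the interstitium, and their number and activation vary with infection and inflammation.

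The libraries held 15566485 to 18046442 counts, and a count of 3, taken as the floor of detection, stood for 0.166 to 0.196 CPM (counts scaled to a common library size, with TMM factors). The titles name muscle and the tissue field lung: the lung genes Sftpc, Sftpb and Ager stood at 13911, 2091 and 2103 CPM on average in normoxia, whereas the skeletal muscle genes Acta1 and Myh4 stayed at or below 0.27 CPM in every group mean and Ckm at or below 5.19. Mean levels of the targeted gene, Hif1a, were 93.4 ± 4.83 CPM for hypoxia and 85.6 ± 0.70 CPM for the third group (SD, n = 3; log2 fold change -0.13, SE 0.08, adjusted p = 0.62, edgeR). A lower Hif1a transcript was therefore not detected, and the third group is called by its label, "the knockdown label". Hypoxia replicate 2 stood apart from the other hypoxia libraries: 10 T cell markers summed to 133 CPM there against 425 and 359 in replicates 1 and 3, 10 NK cell markers to 114 against 241 and 193, and 10 proliferation genes to 195 against 490 and 447. Counts without it are given for the 8 genes. From a fit added after the data were seen, they are also given for T cell, NK cell, transcription factor and proliferation genes. The same holds for some other lists and single calls below.

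Serglycin was the most abundant of the 8 transcripts in normoxia per length, and granzyme A in the other groups. Per kilobase of merged exon, the normoxia levels were 63.5 ± 0.26 CPM for Srgn, 17.0 ± 1.57 for Gzma and 5.69 ± 1.33 for Nkg7 (SD, n = 3). Gzmb, Ctsw and Prf1 lay within each other's spread at 2.63 ± 0.21, 2.59 ± 0.51 and 2.32 ± 0.43 CPM per kilobase, followed by Fasl at 0.51 ± 0.25 and Gzmk at 0.19 ± 0.17. In hypoxia Gzma led at 188 ± 99.6 CPM per kilobase. Srgn (69.5 ± 12.1), Nkg7 (67.7 ± 34.7) and Gzmb (55.5 ± 35.4) overlapped in spread on this scale, as did Ctsw (13.8 ± 6.36), Prf1 (11.3 ± 3.63) and Gzmk (9.87 ± 5.36), with Fasl last at 2.71 ± 1.23. Under the knockdown label the order was Gzma (176 ± 48.9 CPM per kilobase), Srgn (81.0 ± 7.93), then Gzmb (37.6 ± 12.1) and Nkg7 (32.5 ± 5.12), which overlapped, then Prf1 (12.0 ± 3.16), Ctsw (7.45 ± 0.99), Fasl (2.14 ± 0.48) and Gzmk (0.48 ± 0.13).

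**Figure D1:**
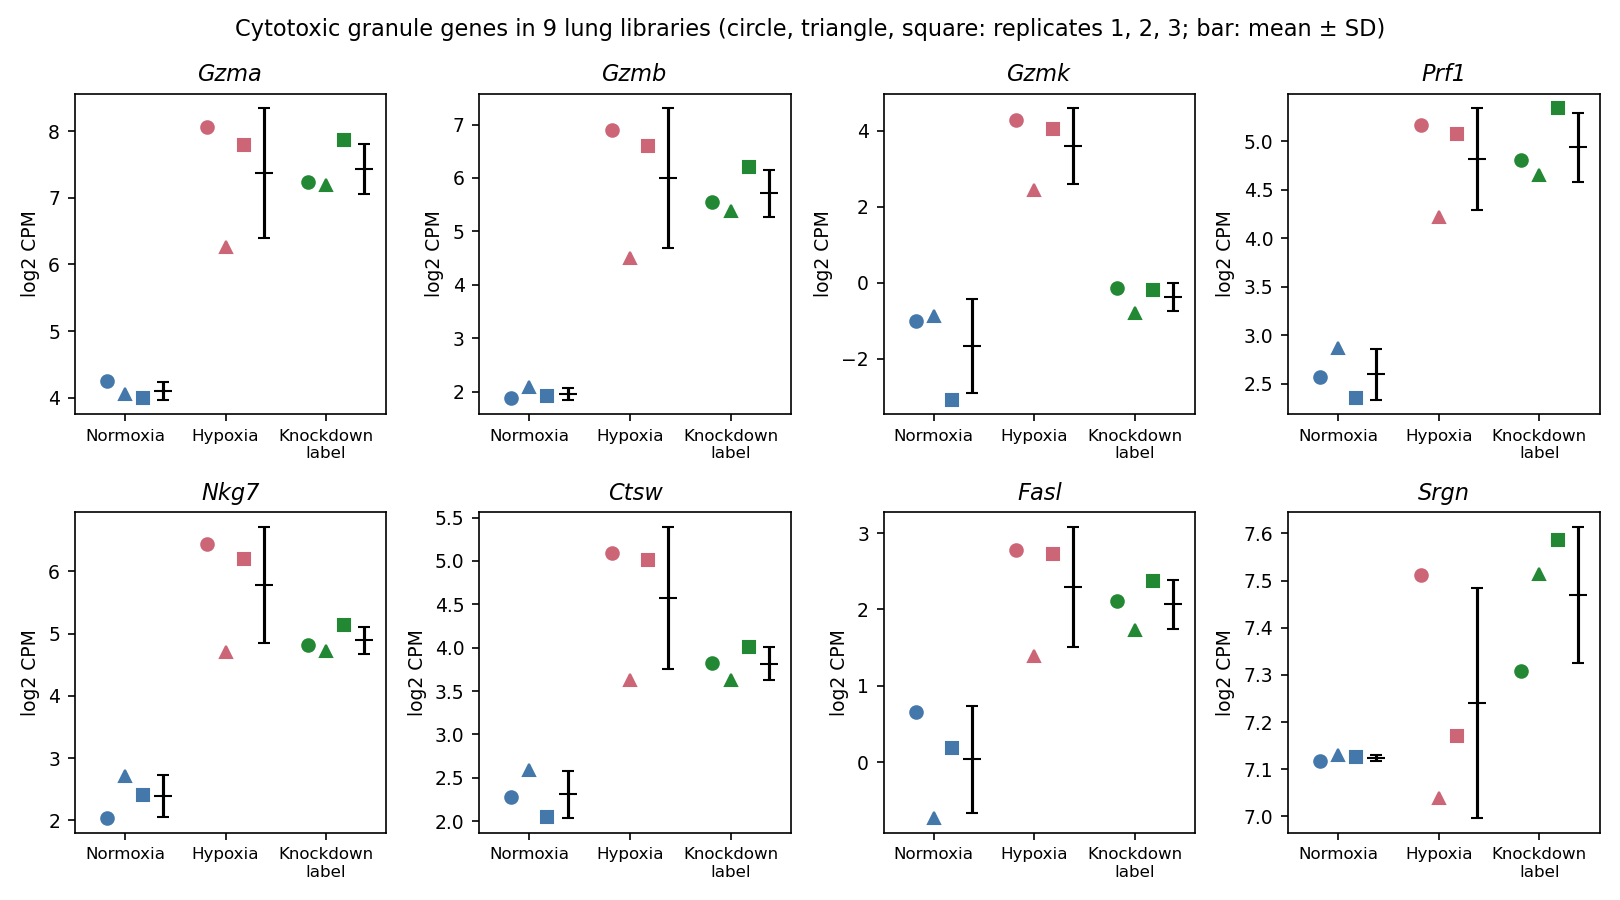
Log2 CPM (prior count of 2) of the 8 cytotoxic granule genes in each library, 1 gene per panel, with the mean and SD of each group of 3 libraries as bars; the vertical axes differ between panels. All genes but Srgn lie higher in every hypoxia library than in every normoxia library, and Gzmk under the knockdown label lies at 0.46 to 0.78 CPM, below every hypoxia library.

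Gzma and Gzmk are neighbours on the minus strand of chromosome 13, with 70626 bases between them (Gzma at 113093825 to 113100981 and Gzmk at 113171608 to 113225908, GRCm38, GENCODE M21). Gzmb lies on chromosome 14 (56258838 to 56262260, minus strand) and Prf1 on chromosome 10 (61297833 to 61304680, plus strand). Their RefSeq promoter windows, from 250 bases before to 50 after the annotated start (GRCm38.p6), are shown because these are the granzymes and the pore protein on which the comparisons turn. Each is written 5′ to 3′ on the strand of its gene. Capitals mark, on either strand, the hypoxia response core (ACGTG or GCGTG), the T-box core TCACAC and the RUNX core TGTGGT.
Gzma, chr13:113100932-113101231, minus strand: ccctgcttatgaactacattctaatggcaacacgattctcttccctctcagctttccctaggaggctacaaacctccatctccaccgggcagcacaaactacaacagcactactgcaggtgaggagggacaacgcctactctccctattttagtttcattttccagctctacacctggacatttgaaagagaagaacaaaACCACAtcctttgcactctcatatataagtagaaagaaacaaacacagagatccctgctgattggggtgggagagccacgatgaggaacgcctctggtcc
Gzmk, chr13:113180916-113181215, minus strand: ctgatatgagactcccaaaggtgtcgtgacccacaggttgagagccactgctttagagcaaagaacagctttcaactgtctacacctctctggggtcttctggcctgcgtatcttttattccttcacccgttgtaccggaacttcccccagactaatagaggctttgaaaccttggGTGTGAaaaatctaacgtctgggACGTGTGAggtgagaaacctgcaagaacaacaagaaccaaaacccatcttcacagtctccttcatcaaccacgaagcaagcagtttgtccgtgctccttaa
Gzmb, chr14:56262285-56262584, minus strand: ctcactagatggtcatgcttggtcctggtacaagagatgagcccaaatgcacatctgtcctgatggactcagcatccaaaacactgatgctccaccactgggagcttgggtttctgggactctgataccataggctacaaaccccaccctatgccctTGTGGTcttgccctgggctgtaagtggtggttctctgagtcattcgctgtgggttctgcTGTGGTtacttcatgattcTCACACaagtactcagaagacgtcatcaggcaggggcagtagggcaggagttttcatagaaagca
Prf1, chr10:61297586-61297885, plus strand: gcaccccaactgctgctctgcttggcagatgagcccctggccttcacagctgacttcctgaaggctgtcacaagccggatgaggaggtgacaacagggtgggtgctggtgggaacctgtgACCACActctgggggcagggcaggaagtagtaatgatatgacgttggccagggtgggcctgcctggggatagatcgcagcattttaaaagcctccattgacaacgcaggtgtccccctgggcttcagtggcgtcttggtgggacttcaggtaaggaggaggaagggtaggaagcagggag

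T-box factors such as T-bet and Eomes and the RUNX factors are known to regulate perforin and granzyme genes. Windows were found for 7 of the 8 genes, with 2 for Srgn, and none was given for Ctsw. Of these 8 windows, 5 held TGTGGT (Gzma, Gzmb, Prf1, Nkg7 and 1 of Srgn), against 16.8% of all 32851 windows, and 3 held TCACAC (Gzmb, Gzmk, Nkg7), against 14.5%. A hypoxia response core was present in 2 (Gzmk and 1 of Srgn), against 43.8% of all windows. In Gzmk that core begins 51 bases before the start and overlaps 1 of the gene's T-box matches by 3 letters, at the letters ACGTGTGA. The ETS cores AGGAA and CGGAA occurred in 6 and 3 of the 8 windows (66.7% and 29.9% of all), TTCNNNGAA, bound by STAT factors, in 2 (8.3%), the AP-1 motif TGANTCA in 1 (7.81%) and the CRE motif TGACGTCA in 0 (1.79%). The RefSeq start of Gzmk lies inside the GENCODE interval of the gene, and the whole RefSeq window of Gzmb lies upstream of its GENCODE interval. The annotations thus place the starts of these genes differently, and the motif positions depend on the RefSeq start. These matches describe the letters of the windows and not occupied sites.

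In hypoxia against normoxia, 7 of the 8 genes rose and serglycin was the exception. The rises ran from 4.87-fold for Prf1 to 50.2-fold for Gzmk, and the median log2 fold change over the 8 was 2.94, beside -0.01 over all tested genes. Over the 3 groups together 7 of the 8 differed, beside 7.95% of all tested genes. The comparison itself called 2.77% of all tested genes higher and 1.45% lower. All 3 hypoxia libraries lay above all 3 normoxia libraries for the same 7 genes, which held for 10.6% of tested genes. In bulk tissue, more cells of a type and more RNA per cell cannot be told apart.

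Granzyme A, the tryptase of the family, stood at 18.8, 16.5 and 15.8 CPM in the normoxia libraries and at 269, 76.6 and 222 CPM in hypoxia. Even the lowest hypoxia library, replicate 2, was above every normoxia library, and the log2 fold change was 3.47 (SE 0.40, adjusted p = 0.00244, edgeR). Granzyme B, which cleaves after aspartate and activates caspases in the target, measured 3.54, 4.11 and 3.66 CPM in the normoxia libraries and 120.0, 22.5 and 96.4 CPM in the hypoxia libraries. The normoxia values were tight and the hypoxia values wide, and the groups did not overlap (log2 difference 4.40, SE 0.55, adjusted p = 0.0033, edgeR). Granzyme K, a second tryptase, had only 6, 7 and 0 counts in the normoxia libraries, against 351, 93 and 285 in the hypoxia libraries, that is at most 0.42 CPM against 19.4, 5.30 and 16.4 CPM. Its log2 fold change of 5.65 (SE 0.68, adjusted p = 0.00272, edgeR) ranked 3 of 17578 tested genes, but its size depends on the few normoxia counts and ran from 5.07 to 6.16 over the alternatives. With limma-voom, Gzmb and Gzmk missed the threshold (adjusted p = 0.0665 and 0.0544, the highest of their 16 alternatives, the lowest being 5.27e-12 and 1.74e-17).

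Perforin measured 5.82, 7.19 and 4.98 CPM under normoxia, then 35.7, 18.5 and 33.5 CPM under hypoxia. This was the smallest rise of the 7 (log2 difference 2.28, SE 0.27, adjusted p = 0.00272, edgeR). Nkg7, whose product takes part in granule release, went from 3.98, 6.41 and 5.22 CPM to 86.1, 26.0 and 73.6 (log2 fold change 3.57, SE 0.39, adjusted p = 0.00208, edgeR). Ctsw, a cysteine protease gene expressed mainly in CD8 T cells and NK cells, went from 4.74, 5.92 and 4.02 CPM to 33.9, 12.3 and 32.1 (2.41, SE 0.34, adjusted p = 0.00478). For these genes too the hypoxia libraries split into replicates 1 and 3 at high and replicate 2 at intermediate levels, without overlap with normoxia.

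Fasl was low throughout, with 1.45, 0.48 and 1.02 CPM in the normoxia libraries and 6.76, 2.51 and 6.49 CPM in the hypoxia libraries. The log2 fold change was 2.41 (SE 0.46, adjusted p = 0.0159, edgeR). This call was lost in 4 of 16 alternatives: with limma-voom and when normoxia replicate 3 or either of hypoxia replicates 1 and 3 was left out, with adjusted p from 8.91e-06 to 0.0722 over all of them. Srgn, which packs granzymes and perforin in the granule and is also made by myeloid cells, mast cells, platelets and endothelium, stood at 139, 140 and 140 CPM without hypoxia and at 182, 131 and 144 CPM with it. The groups overlapped, and the 95% interval of its log2 fold change of 0.13 was -0.13 to 0.39 (adjusted p = 0.643, edgeR). Without hypoxia replicate 2 the other 7 genes rose by 2.53 (Prf1) or more on the log2 scale and all stayed past the threshold, with 750 genes of the whole table called higher in that fit instead of 487.

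**Figure D2:**
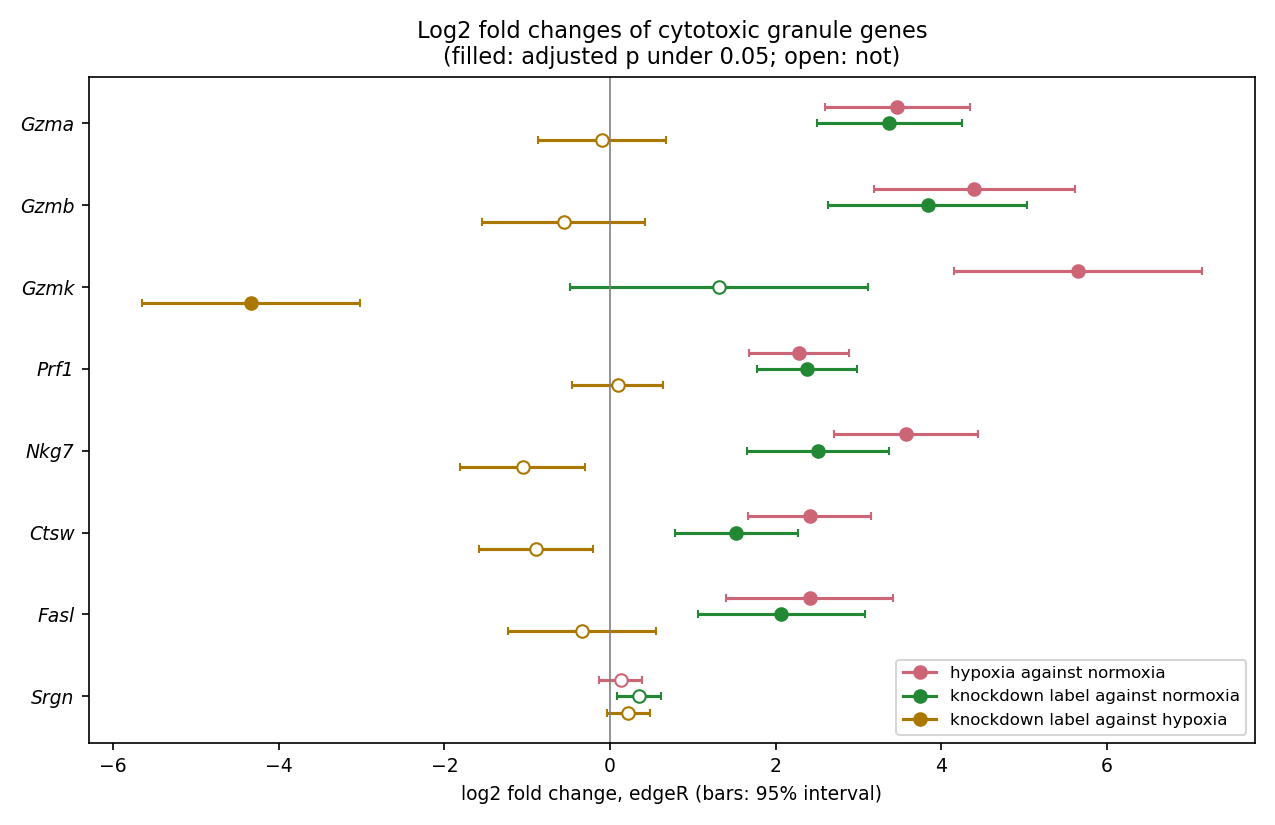
Log2 fold changes of the 8 genes with 95% intervals from edgeR in the 3 comparisons, which share libraries; filled points had an adjusted p under 0.05 over all tested genes. The intervals of Gzmk (-5.65 to -3.02) and Gzma (-0.88 to 0.68) for the knockdown label against hypoxia do not overlap.

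Between the knockdown label and hypoxia, granzyme K fell 20.2-fold and none of the other 7 genes passed the test. Granzyme A and perforin had estimates near 0, and Gzmb, Nkg7, Ctsw and Fasl had estimates below 0 that did not pass. The test called 0.449% of all tested genes lower and 1.26% higher, and the median log2 fold change of the 8 was -0.45 beside -0.003 over all tested genes. Gzmk was the 1 gene of the 8 with all knockdown-label libraries below all hypoxia libraries, a pattern that 7.43% of tested genes showed. None of the 8 had all of them above, against 8.58% of tested genes.

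Gzmk had 14, 7 and 13 counts under the knockdown label, or 0.78, 0.46 and 0.76 CPM, against 5.30 CPM in the lowest hypoxia library. Its log2 fold change was -4.33 (SE 0.60, adjusted p = 0.00252, edgeR). The call held in 15 of 16 alternatives and was lost with limma-voom (adjusted p = 0.07, the lowest being 2.06e-14). Gzma stood at 151, 146 and 233 CPM, inside the hypoxia range of 76.6 to 269, with a log2 fold change of -0.10 and a 95% interval of -0.88 to 0.68 (adjusted p = 0.962). Its sign changed with the library left out, from -0.48 without hypoxia replicate 2 to 0.23 without hypoxia replicate 1. Prf1, at 27.9, 25.0 and 40.4 CPM, had an interval of -0.46 to 0.64 around 0.09 (adjusted p = 0.949), and its sign also turned (-0.16) without hypoxia replicate 2. The intervals allow changes of either sign, and equal levels are not shown.

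For 3 genes the outcome hung on hypoxia replicate 2. Gzmb stood at 46.8, 41.4 and 73.8 CPM under the knockdown label (log2 fold change -0.56, 95% interval -1.55 to 0.43, adjusted p = 0.748, edgeR). Nkg7 was at 28.0, 26.2 and 35.0 CPM (-1.06, interval -1.82 to -0.30, adjusted p = 0.23), and Ctsw at 14.0, 12.2 and 15.9 (-0.89, interval -1.58 to -0.20, adjusted p = 0.282). These values lay below hypoxia replicates 1 and 3 and above hypoxia replicate 2, except for 1 Ctsw library at 12.2 CPM against 12.3. Without replicate 2 the log2 fold changes were -1.01 for Gzmb, -1.43 for Nkg7 and -1.24 for Ctsw, with adjusted p of 0.0305, 0.00111 and 0.00254, each the lowest of 16 alternatives whose highest were 0.974, 0.611 and 0.66. In that fit 4 of the 8 genes were lower and 243 genes of the whole table were called lower, against 79 with all libraries. Nkg7 and Ctsw also passed with no low-count filter. Fasl, at 4.19, 3.20 and 5.04 CPM (-0.34, adjusted p = 0.859), and Srgn, at 158, 183 and 192 CPM (0.22, interval -0.04 to 0.48, adjusted p = 0.559), passed in none of the alternatives.

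Set against normoxia, 6 of the 8 genes were higher under the knockdown label, beside 4.79% of all tested genes called higher and 3.44% lower. All knockdown-label libraries lay above all normoxia libraries for the 8 genes, as they did for 14.5% of tested genes. The log2 fold changes were 3.37 for Gzma (SE 0.40, adjusted p = 0.000425), 3.84 for Gzmb (SE 0.55, adjusted p = 0.00156) and 2.37 for Prf1 (SE 0.27, adjusted p = 0.000377, edgeR). Nkg7 rose by 2.51 (adjusted p = 0.00273), Fasl by 2.07 (adjusted p = 0.0191) and Ctsw by 1.52 (adjusted p = 0.019). Ctsw lost the call in 5 of 16 alternatives (adjusted p up to 0.101): with limma-voom, without normoxia replicate 1 or 3 and without knockdown-label replicate 1 or 3. Fasl lost it in 5 (up to 0.072): with limma-voom, without normoxia replicate 2 or 3 and without knockdown-label replicate 1 or 3. Gzmb missed it with limma-voom (0.051). Gzmk was not called, at 1.32 with a 95% interval of -0.48 to 3.11 (adjusted p = 0.373), although its counts of 14, 7 and 13 reached or passed the 6, 7 and 0 of normoxia. Srgn, at 0.35 (interval 0.09 to 0.61, adjusted p = 0.101), passed in 2 of 16 alternatives, without hypoxia replicate 1 (0.0448, the lowest) and in a fit of only the 6 libraries compared, the highest value being 0.255. The 3 comparisons share libraries in pairs and are not independent of each other.

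Within the granzyme transcripts, Gzmk took its largest share in hypoxia and its smallest under the knockdown label, apart from the normoxia library without a Gzmk count. Of the summed Gzma, Gzmb and Gzmk counts in a library, Gzmk took 1.67%, 2.01% and 0% in the normoxia libraries. Its share was 4.76%, 5.07% and 4.89% in the hypoxia libraries and 0.394%, 0.243% and 0.247% under the knockdown label. The 0 of 325 counts in normoxia replicate 3 allows a share of up to 0.923% by the floor of 3 counts, and its Wilson upper bound was 1.17%. The Gzmk share was thus nearly the same in the 3 hypoxia libraries, with 95% Wilson intervals of 4.30% to 5.27%, 4.16% to 6.18% and 4.37% to 5.48%, although replicate 2 had 1833 granzyme counts against 7371 and 5827. The share of Gzmb was 15.6%, 19.5% and 18.8% in the normoxia libraries, 29.4%, 21.5% and 28.8% in the hypoxia libraries and 23.6%, 22.0% and 24.0% under the knockdown label. Gzma made up the rest, from 65.8% in hypoxia replicate 1 to 82.8% in normoxia replicate 1. The intervals cover counting error only, and with 3 against 3 libraries an exact two-sided permutation test cannot go below 0.10, so no test was made of these shares.

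**Figure D3:**
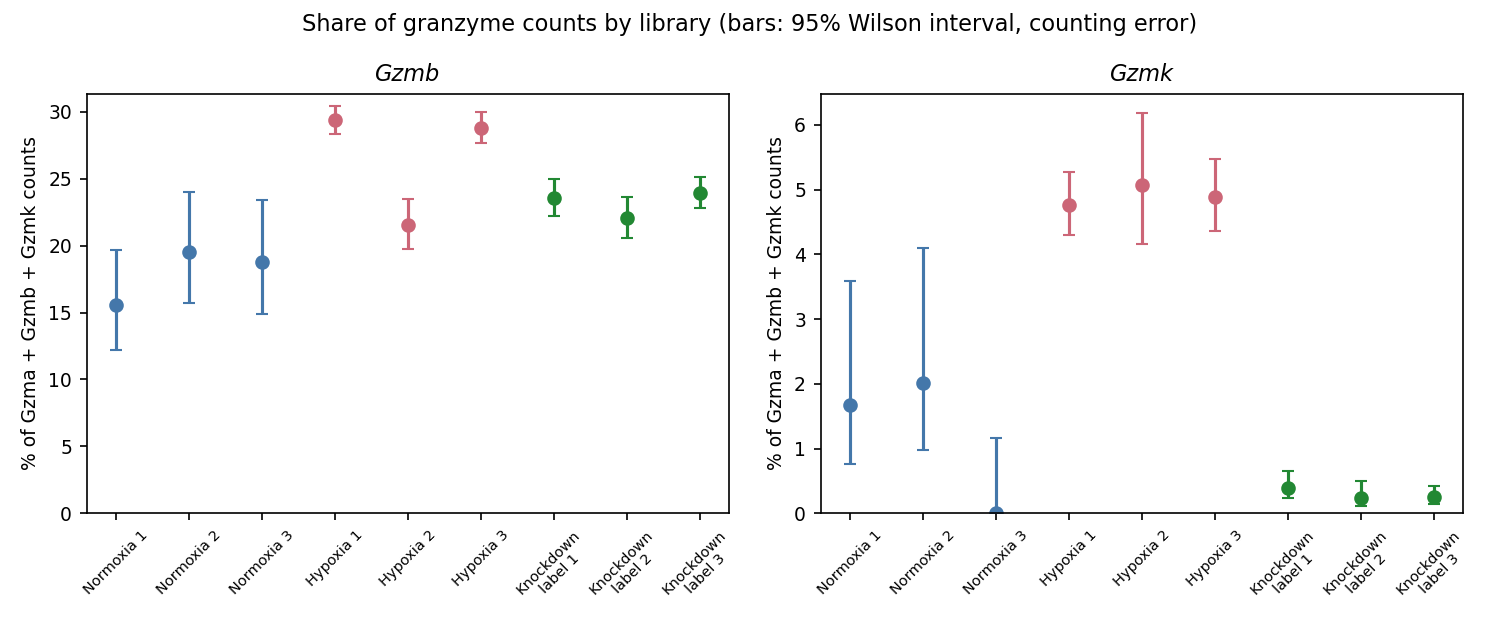
Percent of the summed Gzma, Gzmb and Gzmk counts that fell on Gzmb (left) and Gzmk (right) in each library, with 95% Wilson intervals for counting error. The Gzmk share is 4.76% to 5.07% in hypoxia and at most 0.394% under the knockdown label.

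T cell and NK cell genes were measured beside the granule genes, since both cell types carry them. All 10 T cell markers and all 10 NK cell markers rose in hypoxia against normoxia, with median log2 fold changes of 2.56 and 2.13. Against hypoxia, 9 of 10 T cell markers fell under the knockdown label (median -2.41), including Cd8b1 (-3.63), Cd8a (-3.25), Trac and Cd3e (both -2.58), and no NK cell marker was called by edgeR (median -0.12; at an unadjusted p under 0.05, 1 was higher and 2 lower). Against normoxia, 10 of 10 NK cell markers were higher under the knockdown label (median 1.91), including Klra7 (3.19), Ncr1 (2.75), Klra4 (2.65) and Klrc2 (2.01), and no T cell marker was called (median 0.14; 1 higher at an unadjusted p under 0.05). The summed level of the T cell markers was 40.8 to 54.6 CPM in normoxia, 133 to 425 in hypoxia and 55.8 to 73.2 under the knockdown label. That of the NK cell markers was 40.4 to 46.3, 114 to 241 and 132 to 215 CPM. Without hypoxia replicate 2, all 10 T cell markers were lower under the label than in hypoxia, 1 NK cell marker was (Il18rap), and 1 T cell marker, Lck, was higher than in normoxia. At that unadjusted cut, 3068 of all 17578 tested genes passed in hypoxia against normoxia (edgeR), in either direction. The numbers were 1928 for the label against hypoxia and 4058 for the label against normoxia. Counts of list members at this cut, here and below, are to be read beside these. No marker of either list was at 0 in all libraries. These lists were chosen with earlier results of these data known, and their part in the levels of the granule genes was not tested. Whether each list marks only its own cell type in these libraries was not tested either.

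Relative to the mean of the NK cell markers, the knockdown-label and hypoxia libraries had close levels of Gzma and Prf1. The markers in this mean did not all move alike. For the label against hypoxia, 5 of the 10 had log2 fold changes above 0, and values ran from -0.75 (Il18rap) to 0.81 (Ncr1). The log2 CPM of Gzma minus that mean was 2.26 ± 0.10 in normoxia, 3.54 ± 0.43 in hypoxia and 3.59 ± 0.07 under the knockdown label (SD, n = 3). For Prf1 the same difference was 0.76 ± 0.21, 0.98 ± 0.13 and 1.09 ± 0.01, for Gzmb 0.12 ± 0.10, 2.16 ± 0.76 and 1.87 ± 0.08, and for Fasl -1.81 ± 0.73, -1.54 ± 0.29 and -1.77 ± 0.13. Gzma and Gzmb were thus higher in hypoxia than in normoxia also on the scale of the NK markers, by 1.28 and 2.04, while Prf1 and Fasl differed by 0.22 and 0.26, which for Fasl was within the spread of normoxia. Nkg7 went from 0.55 ± 0.34 to 1.94 ± 0.39 and 1.05 ± 0.14, and Ctsw from 0.47 ± 0.22 to 0.73 ± 0.31 and -0.02 ± 0.19. Without hypoxia replicate 2 the difference between the label and hypoxia on this scale was -0.19 for Gzma, 0.13 for Prf1 and -0.73 for Gzmb, against 0.06, 0.12 and -0.29 with all libraries.

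Relative to the T cell markers, 7 of the genes had higher values under the knockdown label than in hypoxia. The mean of these markers itself fell from hypoxia to the label (log2 difference -2.30). A gene with unchanged CPM therefore stands higher by about that amount on this scale. Srgn, not called in that comparison, had 2.53, and more granule gene RNA per T cell is not shown. The T cell markers did not fall equally, with log2 fold changes for the label against hypoxia from -3.63 (Cd8b1) to -1.47 (Lck). The log2 CPM of Gzma minus the mean of the T cell markers was 2.92 ± 0.12 in hypoxia and 5.28 ± 0.66 under the knockdown label, and that of Prf1 was 0.36 ± 0.33 and 2.78 ± 0.66. Gzmk was the exception, at -0.87 ± 0.16 in hypoxia and -2.53 ± 0.69 under the knockdown label, a difference of -1.67 relative to the T cell markers and of -3.97 relative to the NK cell markers. In hypoxia its 3 libraries were closer on the T cell scale than in CPM, at -0.78, -1.04 and -0.77, with replicate 2 still the lowest. This closeness was not particular to Gzmk (SD 0.16). The SD in hypoxia on this scale was smaller for Nkg7 (0.087), Ctsw (0.091), Fasl (0.115) and Gzma (0.122). It was larger for Prf1 (0.33), Gzmb (0.46) and Srgn (0.67). These differences are descriptions of log2 levels with no test.

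**Figure D4:**
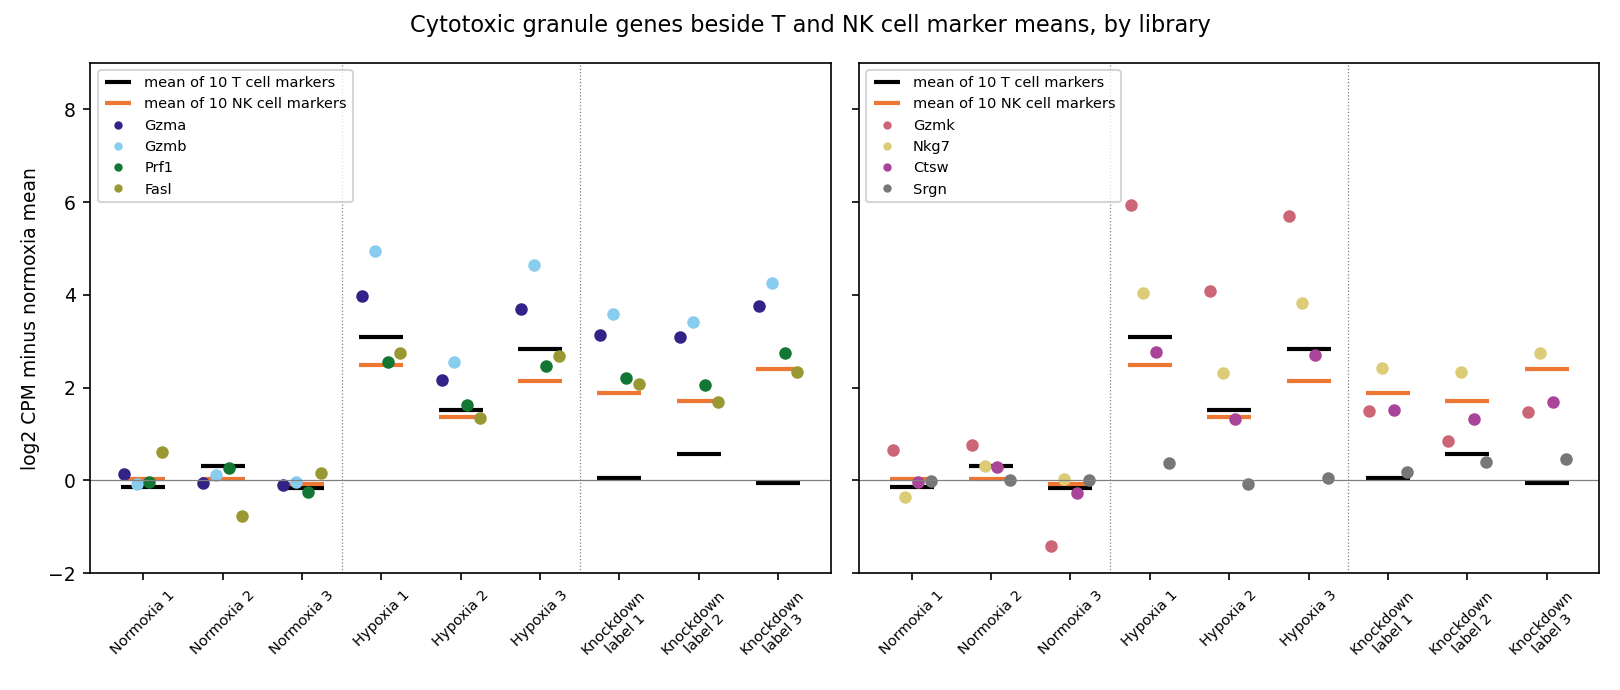
Log2 CPM of each granule gene minus its normoxia mean, by library, beside the mean of 10 T cell markers (black bars) and 10 NK cell markers (orange bars) on the same scale. Under the knockdown label the T cell markers lie near 0 while the NK cell markers and Gzma, Gzmb and Prf1 stay above 1.

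Other genes of the pathway were mostly not called. Of 7 further granzyme genes, 3 matched a row. Gzmm was tested and stood at 2.01 ± 0.74, 2.67 ± 1.04 and 2.40 ± 0.74 CPM in normoxia, hypoxia and under the knockdown label (adjusted p = 0.654 in hypoxia against normoxia, the lowest of the 3), Gzmc had 12, 0 and 15 counts in hypoxia and at most 3 in any other library, and Gzmf had 3 counts in 1 library. Without hypoxia replicate 2, Gzmc was tested too and was called higher in hypoxia. Reads of Gzmb and Gzmc, which are close paralogs, may be split by the counting, so their levels are uncertain. Of 22 tested genes of granule processing and release, 1 rose in hypoxia, Cst7, the gene of the cathepsin inhibitor cystatin F (2.35, adjusted p = 0.00546), and 1 fell, the syntaxin gene Stx7 (-0.28, adjusted p = 0.0488), with a list median of -0.07; the call of Stx7 was lost without hypoxia replicate 2. Cst7 was also the 1 called member under the knockdown label against normoxia (1.74), and none was called against hypoxia by edgeR (median 0.09; at an unadjusted p under 0.05, 4 were higher and 1 lower). Of all 17578 tested genes, 1928 had such an unadjusted p for the label against hypoxia, in either direction. The release factors Unc13d, Rab27a, Stx11 and Stxbp2 and the granzyme-activating protease Ctsc were not called in any comparison.

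Some serpin genes of the granzyme inhibitor list were higher under the knockdown label. Of 7 serpin genes, edgeR called 0 in hypoxia against normoxia, with 3 higher at an unadjusted p under 0.05. Against hypoxia, Serpina3f (2.74, adjusted p = 0.000518) and Serpina3g (1.62, adjusted p = 0.0186), whose product inhibits cathepsins, were higher, and against normoxia 4 of 7 were, with Serpinb9b (2.50) and the granzyme B inhibitor gene Serpinb9 (0.37, adjusted p = 0.0286) added. Serpinb9 itself was not called against hypoxia (adjusted p = 0.237). Serpinb9 stood at 174 ± 11.0, 186 ± 18.4 and 225 ± 9.25 CPM in normoxia, hypoxia and under the knockdown label. All 10 interferon-stimulated genes rose in the same comparison with hypoxia (median 2.61), their summed level going from 221 to 297 CPM in hypoxia to 1699 to 1887. Of 8 neutrophil markers, 3 rose as well (Ly6g, S100a8 and S100a9), with sums of 139 to 273 and 394 to 606 CPM. At an unadjusted p under 0.05 (edgeR), 7 of the 8 were higher, and the call of S100a9 was lost without hypoxia replicate 2. No marker of these lists was at 0 in all libraries, and their part in the serpin and granule gene levels was not tested.

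Among 11 death ligands, receptors and effectors, Ifng and Tnf rose in hypoxia. Ifng, the interferon gamma gene, had 0 counts in each normoxia library, 38, 8 and 35 in hypoxia and 18, 20 and 21 under the knockdown label, and was called in both comparisons with normoxia (adjusted p = 0.00966 and 0.00696). Tnf averaged 0.43 ± 0.17 CPM without and 1.92 ± 0.13 CPM with hypoxia (2.15, adjusted p = 0.00947). Fas, the receptor of Fas ligand, was at 70.8 ± 11.8, 60.9 ± 12.3 and 60.0 ± 12.1 CPM and was not called. None of the 11 was called between the knockdown label and hypoxia by edgeR, with 1 higher and 2 lower at an unadjusted p under 0.05. Against normoxia under the knockdown label, Tnfsf10, the TRAIL ligand gene, was also higher (1.06) and its receptor gene Tnfrsf10b lower (-1.39). Of 9 tested transcription factors of cytotoxic lymphocytes, Tbx21 (3.02), Eomes (2.47), Stat4 (1.84) and Id2 (0.63) rose in hypoxia. Eomes (2.18), Tbx21 (1.99) and Id2 (0.49) were higher under the knockdown label than in normoxia, and none was called between the knockdown label and hypoxia. At an unadjusted p under 0.05 (edgeR), 6 were higher and 2 lower in hypoxia than in normoxia. The 2 lower ones, Hopx and Zeb2, stood at 583 ± 40.2 and 126 ± 21.2 CPM in normoxia, beside 2.35 ± 1.31 for Tbx21. Which cells of the lung carry them was not tested, so their fall cannot be assigned to cytotoxic lymphocytes. Under the label, 4 were higher and the same 2 lower than in normoxia by that measure, and 3 were lower than in hypoxia. Without hypoxia replicate 2, 7 of 10 tested factors rose in hypoxia and 2 were lower under the label than in hypoxia, Runx3 and Stat4.

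Of 10 proliferation genes, 9 also rose in hypoxia (median 2.01), including Ccnb1 (2.33), Rrm2 (2.16), Top2a (2.13) and Mki67 (2.03), and none was called against hypoxia under the knockdown label (median -0.78; 5 lower at an unadjusted p under 0.05). Against normoxia, 1 of the 10 was called higher under the label, Bub1b (1.03), with 8 higher at an unadjusted p under 0.05 and a median of 1.05. Without hypoxia replicate 2 these counts were 10 of 10 higher in hypoxia, 8 lower under the label against hypoxia and 8 higher against normoxia. The list summed to 132 to 165 CPM in normoxia, 195 to 490 in hypoxia and 229 to 270 under the knockdown label, with no gene at 0 in all libraries. Its part in the granule gene levels was not tested. Of the other cells that could hold these transcripts, plasmacytoid dendritic cells had no called marker in hypoxia, and 1 higher (Bst2, also an interferon-stimulated gene) and, against normoxia, 1 lower (Tcf4) of 6 under the knockdown label. Tcf4 stood at 228 ± 12.6 CPM in normoxia, beside 1.99 ± 0.43 for Siglech of the same list. Which cells carry it was not tested, so its call cannot be assigned to plasmacytoid dendritic cells. At an unadjusted p under 0.05 (edgeR), 2 of these markers were higher and 1, Tcf4, lower in hypoxia than in normoxia. Without hypoxia replicate 2, 1 was called higher in hypoxia. Of 4 tested gamma delta T cell markers edgeR called none in any comparison; at an unadjusted p under 0.05, 1 was lower under the label than in hypoxia and 1 higher than in normoxia, and the latter, Trdc, was called without hypoxia replicate 2. Mast cell and basophil genes had 6 tested markers, of which Cma1 rose (2.70) and Cpa3 fell (-1.09) in hypoxia, the second not without hypoxia replicate 2. Under the label against normoxia, Cma1 was higher (2.55, adjusted p = 0.0337) and Cpa3 lower (-1.83, adjusted p = 0.00214, edgeR).

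Markers of cells that also carry serglycin moved in both comparisons with normoxia. In hypoxia, 1 of 5 platelet markers was lower (Ppbp, a call lost without hypoxia replicate 2; 5 at an unadjusted p under 0.05), 2 of 6 endothelial markers were lower (Cldn5, Vwf), 0 of 8 neutrophil markers were called (1 lower unadjusted, edgeR) and 2 of 8 monocyte and macrophage markers were higher (Ly6c2, Ccr2; 6 unadjusted). Under the knockdown label against normoxia, where the estimate for Srgn was 0.35, 6 of 8 monocyte and macrophage markers and 3 of 8 neutrophil markers were higher, 3 of 6 endothelial markers and 1 of 5 platelet markers lower. Without hypoxia replicate 2, 7 monocyte and macrophage markers and 2 neutrophil markers were higher in that comparison, and the other 2 lists kept their counts. The summed monocyte and macrophage markers were 6404 to 7149 CPM in normoxia, 6332 to 8012 in hypoxia and 8229 to 11717 under the label, and the endothelial sums 3899 to 4594, 3189 to 3617 and 3181 to 3350 CPM. Their part in the level of Srgn was not tested.

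Within the 8 genes, Gzma, Gzmb and Prf1 were the most alike over the 9 libraries, with Pearson correlations of log2 CPM of 0.995 (Gzma and Gzmb), 0.990 (Gzma and Prf1) and 0.985 (Gzmb and Prf1). Nkg7 and Ctsw had 0.986. Gzmk was less like Gzma (0.677) and more like Ctsw (0.875), and Srgn was least like Gzmk (0.118). As deviations from the group means, Gzma and Gzmb had 0.982, but Gzma and Prf1 0.896 and Gzmb and Prf1 0.909, below Gzmb and Nkg7 (0.961), Gzmb and Ctsw (0.957) and Nkg7 and Ctsw (0.945). Among tested genes outside the 8 with a mean of at least 1 CPM over the 9 libraries, the highest correlations were those of Klre1 (0.994), H2-T-ps (0.993) and Klrk1 (0.992) for Gzma, Klrk1 (0.993), H2-T-ps (0.991) and Txk (0.990) for Gzmb, and Klra4 (0.994), Klrk1 (0.993) and Klre1 (0.993) for Prf1. For Nkg7 they were Il18rap (0.995), Spn (0.988) and Clspn (0.984), for Ctsw Mcm6 (0.992), Sh2d2a (0.990) and Cd48 (0.989), and for Gzmk Cit (0.976), Cxcr3 (0.972) and Acsbg1 (0.960). Fasl was closest to Depdc1a (0.980), Snx5 (0.975) and Gm4739 (0.971), and Srgn to N4bp2l1 (0.954), Vta1 (0.950) and Dnajc8 (0.950). The points of each correlation share the same 9 libraries and 3 groups, so the values rank likeness and carry no test.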

How the data were processed

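The deposited table holds raw read counts per gene, whole numbers and not normalised, for 9 lung libraries. Libraries came from an RNA kit of the NEBNext Ultra series, per the labels' protocols. The submitters' processing notes name build mm10 and the tools HISAT2, StringTie, TopHat, DESeq, limma and bcl2fastq, without roles. The counting program and its strand setting are not stated, so antisense or overlapping transcripts cannot be told apart. Gene positions and merged exon lengths were taken from GENCODE M21 by identifier, and promoter windows from RefSeq (GRCm38.p6).

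Genes were kept by filterByExpr (17578 of 30865), scaled by TMM (factors 0.976 to 1.03) and fitted with the quasi-likelihood model of edgeR 4.0.16 in R 4.3.3 over all 9 libraries. Each adjusted p comes from this fit unless another tool is named, with Benjamini-Hochberg adjustment across every tested gene, at a threshold of 0.05. Standard errors were derived from the F statistic. CPM were scaled by TMM, and log2 CPM used a prior count of 2. The 95% intervals of log2 fold changes come from the edgeR fit and include the spread between libraries. Wilson intervals and floors describe counting error only, and PCR copies of a molecule are counted separately. Between replicates, chi-square divided by its degrees of freedom was 11.9 to 23.5, so no pair agreed within counting noise; this does not show that the libraries came from separate animals. The 8 genes and all lists were chosen with earlier results of these data known. Of 163 listed symbols, 155 matched a row. Named were the 8 genes, Hif1a, the tissue check genes and every other granzyme gene. Also named were up to 4 called genes of largest change per list and the 3 genes most like each member. Of the further names, Unc13d, Rab27a, Stx11, Stxbp2, Ctsc, Fas, Hopx, Zeb2, Siglech, Runx3, Trdc, and Il18rap and Lck as calls that changed, were chosen after their values were seen. Alternatives were DESeq2 1.42.0 size factors in edgeR, the DESeq2 Wald test, limma-voom (limma 3.58.1), no filter, 1 CPM in 3 libraries, a fit of the 6 libraries compared, the replicate block and leaving out each library; list counts and marker ratios without hypoxia replicate 2 were added after seeing the data. A planned comparison of the proteins was not made, since protein sequences were not used here.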

Additional observations from a re-analysis of the deposited data

How the results depend on the processing

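Of the calls on the 8 genes, those of Gzma, Prf1 and Nkg7 against normoxia held in all 16 alternatives in both comparisons, and that of Ctsw did in hypoxia. With limma-voom, 4 of the 8 genes were higher in hypoxia, 0 lower and 3 higher under the knockdown label against hypoxia and normoxia, and over all genes 267 were higher in hypoxia and 40 lower under the label against hypoxia. The DESeq2 Wald test called 814 higher and 495 lower in hypoxia, 362 higher and 205 lower for the label against hypoxia, and 927 lower against normoxia. With no filter the numbers were 851 and 442, then 376 and 268, with 3 of the 8 genes lower for the label against hypoxia. Fitting only the 6 libraries gave 276 and 168 in hypoxia. The replicate block gave 282 and 118 in hypoxia, 39 lower for the label against hypoxia and 352 lower against normoxia, and changed no call on the 8 genes. Samples of the same number correlated at -0.423 to 0.274 in their deviations from group means, and samples of different number at -0.305 to 0.439. No pairing by number was detected, but with 3 libraries a group these values cannot exclude one. Leaving out 1 library moved the count higher in hypoxia between 138 and 750 and lower between 71 and 248, that of the label against hypoxia between 30 and 243 lower (1 to 4 of the 8 genes), and against normoxia between 457 and 935 higher and 258 and 632 lower. The extremes came without normoxia replicate 3 or hypoxia replicate 2, except the lowest 30, without knockdown-label replicate 1 or 3, and the highest 248, without knockdown-label replicate 2. Estimates near 0 changed sign: Gzma for the label against hypoxia from -0.10 to 0.057 with limma-voom, 0.0082 with the replicate block and -0.48 to 0.23 without 1 library, Prf1 from 0.09 to between -0.16 and 0.25, and Srgn in hypoxia from 0.13 to between -0.0074 and 0.23; the cause was not tested. The median level of the 8 genes per T and NK marker was 0.89 higher for the label against hypoxia and 1.09 against normoxia; per T cell marker alone it was 2.04 and 2.00, per NK cell marker alone -0.26 and 0.19. For the label against hypoxia the marker means themselves differed by -1.15 (T and NK), -2.30 (T) and -0.001 (NK). Those differences enter the values per marker with the opposite sign. Depth limits Gzmk in normoxia, with 0 to 7 counts a library.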
